A study of Mus musculus with 15 samples.

Results

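The genes described here encode the subunits of the mitochondrial respiratory chain and of the ATP synthase. They were chosen by gene symbol (the Nduf, Sdh, Uqcr, Cyc1, Cox4 to Cox8 and Atp5 families and the protein-coding mt- genes) among the 53088 gene entries present in both deposited tables. Of 99 matching symbols, 92 had a mean of at least 1 FPKM in at least 1 of the tables, and these are the members. The tables are in FPKM, in which the fragments of a gene are divided by its length and by the size of the library. Of the members, 79 are encoded in the nucleus and 13 in mitochondrial DNA. Complex I had 36 nuclear and 7 mitochondrial members, complex II 4 nuclear members, complex III 9 nuclear and 1 mitochondrial, complex IV 13 nuclear and 3 mitochondrial, and the ATP synthase 17 nuclear and 2 mitochondrial. Ndufa4, named for complex I, was counted with complex IV, where its protein is now placed. The threshold split no borderline gene. Taking for each gene the table in which it was higher, the lowest member was Ndufb4, at a mean of 23.1 FPKM in B16-F10, while the highest symbol left out was Cox7a1, at 0.127 FPKM in B16-F10 and 0.0611 FPKM in MC38. The other symbols left out were Cox4i2, Cox6b2, Cox6c2, Cox7b2, Cox8b and Cox8c.

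The study altered Ssbp4, which encodes a member of the single-stranded DNA binding protein family, in a pair of mouse tumour lines and sequenced polyadenylated RNA from 15 libraries. In MC38, a colon adenocarcinoma line, 3 OE libraries came from cells transduced with a retrovirus carrying Ssbp4 ahead of an IRES-EGFP cassette, and 4 WT libraries came from cells labelled wild type; no vector-only group is named. In B16-F10, a melanoma line, 4 KO libraries came from cells nucleofected with Cas9 and a mixture of guide RNAs against Ssbp4, described as a treated population with no clone named, and 4 WT libraries came from the line given, per the labels' protocol, a control guide RNA against an intergenic site. Although MC38 carries the tissue label melanoma too, the 7 melanocyte markers summed to at most 1.44 FPKM in OE and 2.11 FPKM in WT libraries of MC38, whereas B16-F10 had at least 13645 FPKM in KO and 10982 FPKM in WT libraries. Depth, estimated from the spacing of low values, reached 32.55 to 38.45 M fragments (M, 1e6) per MC38 library, and per B16-F10 library 32.55 to 48.9 M. Nothing in the labels states that replicate libraries stem from separate cultures, and p-values therefore reflect library-to-library spread that may be technical. Ssbp4 itself stood at 534 ± 63.5 FPKM in OE and 16.3 ± 2.05 FPKM in WT libraries of MC38 (SD, n = 3 and n = 4; log2 fold change 4.95, limma adjusted p = 1.12e-09). B16-F10 cells had 22.1 ± 2.29 FPKM of Ssbp4 in KO and 34.5 ± 2.37 FPKM in WT libraries (SD, n = 4 each; log2 fold change -0.62, limma adjusted p = 0.00869), so the KO libraries kept 64.1% of the WT level of Ssbp4 mRNA.

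As background, complexes I and II pass electrons from NADH and succinate to ubiquinone, complex III passes them to cytochrome c, and complex IV passes them to oxygen. Complexes I, III and IV pump protons, and the ATP synthase uses the proton gradient to make ATP. All of these assemblies except complex II combine subunits made from nuclear and mitochondrial genes, and the mitochondrial mRNAs are cut from long transcripts that cover most of the circular genome. Tumour cells, including those that take up much glucose, usually keep a working respiratory chain.

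The promoters of 4 nuclear members on which the results below turn are shown for the sequence behind the counts: Ndufv3 and Uqcrh, which had the largest rises among the nuclear members in MC38, Ndufa12, which fell, and Cox6a1, the partner isoform of the gene with the largest fall. Each line gives the 250 bases before the annotated start, 5′ to 3′ on the gene's strand, from RefSeq on GRCm38.p6. The positions are chr17:31519865-31520114 on the + strand for Ndufv3, chr4:116075071-116075320 on the - strand for Uqcrh, chr10:94198785-94199034 on the + strand for Ndufa12 and chr5:115348959-115349208 on the - strand for Cox6a1. Capitals mark matches, on either strand, to the motifs searched.
Ndufv3: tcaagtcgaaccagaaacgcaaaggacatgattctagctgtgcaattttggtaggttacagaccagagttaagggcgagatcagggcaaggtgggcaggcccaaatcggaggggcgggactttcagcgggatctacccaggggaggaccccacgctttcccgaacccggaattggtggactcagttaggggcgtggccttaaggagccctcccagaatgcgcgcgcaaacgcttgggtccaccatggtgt
Uqcrh: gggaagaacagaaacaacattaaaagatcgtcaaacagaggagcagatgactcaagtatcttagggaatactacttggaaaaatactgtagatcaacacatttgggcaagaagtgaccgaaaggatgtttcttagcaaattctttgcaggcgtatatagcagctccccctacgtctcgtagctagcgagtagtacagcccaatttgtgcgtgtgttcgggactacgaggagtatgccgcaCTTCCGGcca
Ndufa12: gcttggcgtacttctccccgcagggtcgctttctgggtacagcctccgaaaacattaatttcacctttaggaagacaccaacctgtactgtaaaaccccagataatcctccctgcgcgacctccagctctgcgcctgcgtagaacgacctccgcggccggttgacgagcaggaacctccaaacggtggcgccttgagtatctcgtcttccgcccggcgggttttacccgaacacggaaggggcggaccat
Cox6a1: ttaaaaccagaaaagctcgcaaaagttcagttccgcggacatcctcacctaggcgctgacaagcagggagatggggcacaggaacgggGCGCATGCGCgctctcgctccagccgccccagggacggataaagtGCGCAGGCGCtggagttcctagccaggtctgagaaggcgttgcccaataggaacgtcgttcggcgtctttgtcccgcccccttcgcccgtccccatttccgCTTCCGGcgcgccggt
The Uqcrh promoter held a match to the ETS motif bound by GABP, CCGGAAG, 10 bases before the start, and the Cox6a1 promoter held an ETS match 16 bases before the start and a pair of NRF1 matches. The promoters of Ndufv3 and Ndufa12 held no match to the 5 motifs searched. Promoter sequence was matched for 65 of the 79 nuclear members. Among them the NRF1 motif was present in 13 (20%, against 4.23% of all 27025 genes with promoter sequence) and the ETS motif in 12 (18.5%, against 7.83%). Those 27025 genes were not limited to genes expressed in these lines, whereas the members were chosen for a level of at least 1 FPKM. The E-box CACGTG, a site type of MYC, was in 6 (9.23%, against 6.86%), the ERR half-site AAGGTCA in 5 (7.69%, against 4.70%) and the YY1 motif AAGATGG in 1 (1.54%, against 5.18%). These matches describe letters in a window and do not show binding.

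In MC38, OE and WT cells differed in a minority of the respiratory genes and by small amounts. Of the 92 members, 25 (27.2%) passed limma at a Benjamini-Hochberg adjusted p of 0.05, 8 higher and 17 lower in OE cells, whereas 47.5% of all 10748 genes tested passed, 23.9% higher and 23.6% lower. At an unadjusted p under 0.05 the count was 29 members, against 54.3% of all genes. The groups did not overlap for 26 members (28.3%), against 50.6% of all genes. The median log2 fold change was -0.05 over nuclear members, 0.01 over mitochondrial members and -0.01 over all genes. The median size of a change, whichever its direction, was 0.08 over nuclear members and 0.15 over all genes on the log2 scale. Among the nuclear members 7 rose and 15 fell, and among the mitochondrial members 1 rose and 2 fell. In B16-F10, 0 of the 91 members tested passed, against 2.23% of the 10902 genes tested (1.33% higher and 0.899% lower in KO cells). The 4 fibroblast markers, which are also expressed by mesenchymal tumour cells, summed to 385 to 393 FPKM in OE libraries and 81.9 to 87.5 FPKM in WT libraries of MC38, mostly from Dcn and Pdgfra. The 7 epithelial markers summed to 8.90 to 10.7 FPKM in OE libraries and 6.68 to 8.86 FPKM in WT libraries, but they did not move together. Krt8 was higher, at 9.45 ± 1.06 FPKM in OE cells, against 3.22 FPKM in WT cells (limma adjusted p = 2.60e-06). Krt18 was lower, at 0, 0.02 and 0.162 FPKM in OE libraries against 2.64 to 3.54 FPKM in WT libraries (limma adjusted p = 1.55e-07). Epcam was listed at 0 in every OE library and at 0.658 to 1.05 FPKM in WT libraries, Cdh1 averaged 0.0333 FPKM in OE and 0.306 FPKM in WT cells, and Krt19, Cdx2 and Vil1 were under 1 FPKM throughout. The part of these markers in the differences reported below was not tested. In bulk RNA, a change in the share of cells that express a gene and a change in the RNA per cell cannot be told apart.

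**Figure D1:**
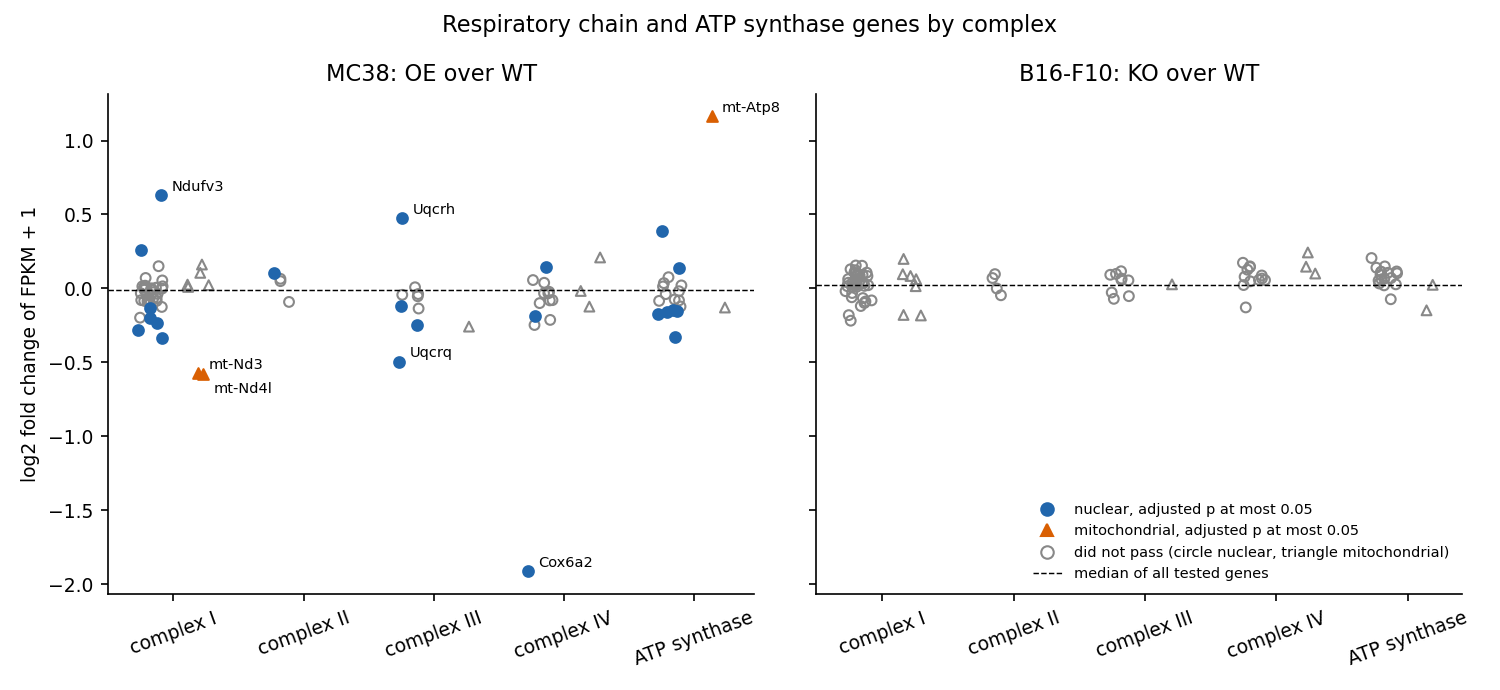
Log2 fold change of FPKM + 1 (vertical axis) for each member, grouped by complex, for MC38 OE over WT (left) and B16-F10 KO over WT (right); circles are nuclear and triangles mitochondrial genes, filled where the adjusted p was at most 0.05. Of 92 members 25 are filled in MC38, with Cox6a2 at -1.91 and mt-Atp8 at 1.16 farthest from 0, and none of 91 is filled in B16-F10.

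Cox6a2 had the largest change of any member. Its protein is the heart and skeletal muscle isoform of cytochrome c oxidase subunit VIa, a nuclear-encoded subunit of complex IV, and Cox6a1 encodes the isoform found in most other tissues. Cox6a2 stood at 29.8, 27.8 and 30.3 FPKM in the OE libraries, against 94.8, 127.8, 108.3 and 124.5 FPKM in the WT libraries. The groups lay far apart, with the highest OE library well under the lowest WT library. OE cells held 25.7% of the WT level (log2 fold change -1.91, SE 0.09, limma adjusted p = 1.16e-07).

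Cox6a1 did not pass, at 267, 259 and 215 FPKM in OE libraries against 231, 320, 300 and 330 FPKM in WT libraries (log2 fold change -0.25, SE 0.12, limma adjusted p = 0.107). Its groups overlapped through WT library 1. Cox6a2 therefore made up 10.7 ± 1.45% of the summed Cox6a1 and Cox6a2 FPKM in OE cells and 27.9 ± 1.14% in WT cells (SD, n = 3 and n = 4). The muscle markers Ckm, Myh7, Actn2 and Mb were near 0 in the same libraries and summed to at most 0.164 FPKM in any OE library and 0.0706 FPKM in any WT library. Cox6a2 was nearly absent from B16-F10, at 0.0996 to 0.225 FPKM in KO and 0 to 0.817 FPKM in WT libraries, too low to be tested there. The tissue isoforms Cox4i2, Cox6b2, Cox7a1, Cox8b and Cox8c were each under 1 FPKM in both lines, so Cox6a2 in MC38 was the one muscle or tissue-restricted isoform of complex IV present at a sizeable level.

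**Figure D2:**
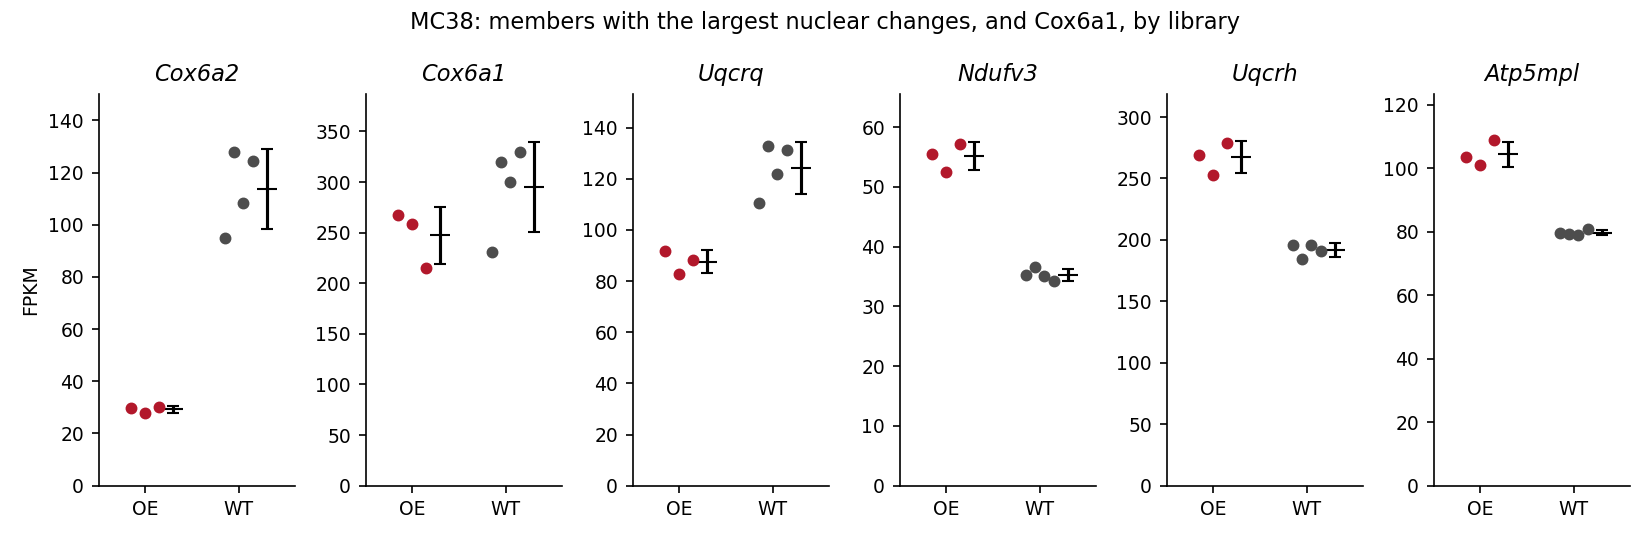
FPKM in each MC38 library (points; red OE, grey WT) with the group mean and SD (bars) for the nuclear members named at the head of each panel; each vertical axis starts at 0. Cox6a2 and Uqcrq lie lower and Ndufv3, Uqcrh and Atp5mpl higher in all 3 OE libraries than in all 4 WT libraries, while the Cox6a1 groups overlap.

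Complex I takes electrons from NADH at the tip of its peripheral arm, the N module. Of the 10 members of that module 1 rose and 4 fell in OE cells (50% called, near the 47.5% over all genes). Ndufv3, an accessory subunit next to the NADH-binding site, rose, at 55.6, 52.5 and 57.2 FPKM in OE libraries against 35.2, 36.6, 35.0 and 34.2 FPKM in WT libraries (log2 fold change 0.63, SE 0.04, limma adjusted p = 1.00e-06). Every OE library exceeded every WT library, and the WT libraries lay within a narrow band. Ndufa12, a peripheral-arm subunit added late in assembly, fell, at 215, 210 and 208 FPKM in OE libraries against 263, 264, 272 and 267 FPKM in WT libraries (log2 fold change -0.34, SE 0.03, limma adjusted p = 1.08e-05). Those groups were again well separated.

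The other N-module falls were smaller. Ndufa7 had a log2 fold change of -0.28 (limma adjusted p = 0.0111), Ndufv1, which binds NADH and FMN, one of -0.23 (limma adjusted p = 0.0021), and Ndufs6, which carries a zinc site, one of -0.20 (limma adjusted p = 0.0122). The Q module, which hands electrons to ubiquinone, had 0 of 6 members pass, with all 6 estimates below 0 and none beyond that of Ndufs7, at -0.20 (limma adjusted p = 0.118). Among the 20 other nuclear accessory subunits 1 rose and 1 fell (10% called). Ndufb3, of the proton-pumping membrane arm, rose, at 62.2, 59.2 and 64.8 FPKM in OE libraries against 55.2, 49.8, 50.2 and 51.7 FPKM in WT libraries (log2 fold change 0.26, limma adjusted p = 0.00109). Ndufb9 fell slightly, by 0.13 on the log2 scale (limma adjusted p = 0.0139), a call that was lost without OE library 1 or OE library 2.

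Complex II, which is also the succinate dehydrogenase of the tricarboxylic acid cycle, had 1 of 4 members pass (25%, against 47.5% over all genes). Sdha, the flavoprotein subunit, stood at 91.7, 90.5 and 94.7 FPKM in OE libraries against 87.9, 84.3, 84.6 and 86.2 FPKM in WT libraries (log2 fold change 0.10, limma adjusted p = 0.0223). The groups did not overlap, but the call was lost without OE library 1, OE library 3 or WT library 3. The iron-sulfur subunit Sdhb had an estimate of -0.09 (limma adjusted p = 0.0573), and the membrane anchors Sdhc and Sdhd had estimates of 0.07 and 0.05.

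In complex III 1 of the 9 nuclear members rose and 3 fell (44.4% called, near the 47.5% over all genes). Uqcrh, the hinge protein at the cytochrome c docking site, rose, at 269, 253 and 279 FPKM in OE libraries against 196, 185, 196 and 191 FPKM in WT libraries (log2 fold change 0.47, SE 0.04, limma adjusted p = 7.69e-06). Uqcrq, a small membrane subunit, fell, at 91.8, 82.8 and 88.3 FPKM in OE libraries against 110.5, 132.9, 122.0 and 131.1 FPKM in WT libraries (log2 fold change -0.50, SE 0.06, limma adjusted p = 0.000124). Neither pair of groups overlapped, so subunits of the same assembly moved in opposite directions. Cyc1, cytochrome c1, fell, at 136, 121 and 125 FPKM in OE libraries against 135, 158, 152 and 161 FPKM in WT libraries (log2 fold change -0.25, limma adjusted p = 0.00739), with OE library 1 just above WT library 1. Uqcr10 was at the threshold (log2 fold change -0.12, limma adjusted p = 0.0469), and its call was lost on leaving out OE library 2, OE library 3, WT library 1, WT library 2 or WT library 4. The core proteins Uqcrc1 and Uqcrc2 and the Rieske protein Uqcrfs1 had estimates of -0.05, -0.04 and -0.04 and did not pass.

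In complex IV, Cox6a2 and Cox7a2l fell and Cox6c rose among the 13 nuclear members (23.1% called, against 47.5% over all genes). Cox7a2l, a relative of the subunit VIIa isoforms known to join complex III to complex IV, stood at 137, 136 and 142 FPKM in OE libraries against 161, 158, 150.5 and 161 FPKM in WT libraries (log2 fold change -0.19, limma adjusted p = 0.00146). Its groups did not overlap. Cox6c, a small membrane-spanning subunit, had a log2 fold change of 0.14 (limma adjusted p = 0.0131). The isoforms that most tissues use did not pass: Cox4i1 had an estimate of -0.08 (limma adjusted p = 0.0825), Cox6b1 one of 0.04, Cox7a2 one of -0.02 and Cox8a one of -0.03.

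Of the 17 nuclear ATP synthase genes 2 rose and 5 fell (41.2% called, near the 47.5% over all genes). Of the 5 subunits of the F1 head and central stalk 3 fell: Atp5b, the catalytic beta subunit (log2 fold change -0.15, limma adjusted p = 0.0108), Atp5c1, the gamma subunit (-0.17, limma adjusted p = 0.0014), and Atp5d, the delta subunit (-0.33, limma adjusted p = 0.0188). The fall of Atp5d was lost without OE library 3 or WT library 2. Of the 4 peripheral-stalk subunits, which hold the head still against the rotor, Atp5o fell by 0.16 and Atp5j by 0.15 on the log2 scale (limma adjusted p = 0.0100 and 0.00942). The 3 c-ring genes Atp5g1, Atp5g2 and Atp5g3, which encode the same mature rotor protein, had estimates of -0.08, -0.12 and -0.07 and did not pass.

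Of the 5 small membrane subunits 2 rose and 0 fell. Atp5mpl, the small proteolipid, stood at 103.4, 101.1 and 108.8 FPKM in OE libraries against 79.5, 79.4, 79.0 and 80.9 FPKM in WT libraries (log2 fold change 0.39, SE 0.03, limma adjusted p = 1.02e-05). Atp5k, subunit e of the dimer interface, stood at 155, 160 and 159 FPKM in OE libraries against 150, 141, 142 and 140 FPKM in WT libraries (log2 fold change 0.14, limma adjusted p = 0.00706). Both genes were higher in every OE library than in every WT library. The share called was 60% for the F1 head and central stalk and 50% for the peripheral stalk. It was 0% for the c ring and 40% for the small membrane subunits, against 47.5% over all genes. Each of these groups held at most 5 genes. Whether the groups of subunits differ from each other was not tested.

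Of the 25 calls in MC38, 21 held whichever of the 7 libraries was left out, and 11 held under every setting tried. The 11 were those of Cox6a2, Uqcrq, Ndufa12, Ndufv1, Cox7a2l, Atp5c1, Ndufb3, Atp5mpl, Uqcrh, Ndufv3 and mt-Atp8.

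The mitochondrially encoded genes included the most abundant members, and 10 of the 13 did not pass in MC38. The highest was mt-Cytb, the cytochrome b of complex III, at 7161, 8051 and 6757 FPKM in OE libraries against 8490, 7395, 10114 and 9170 FPKM in WT libraries (log2 fold change -0.26, SE 0.10, limma adjusted p = 0.0569). Its groups overlapped through WT library 2. mt-Co1, the catalytic core of complex IV, stood at 5657 to 6897 FPKM in OE and 5320 to 7479 FPKM in WT libraries (log2 fold change -0.02). The complex I genes mt-Nd1, mt-Nd2, mt-Nd4, mt-Nd5 and mt-Nd6 had estimates of 0.03, 0.11, 0.01, 0.02 and 0.16, and none passed. The polyadenylated fraction was sequenced, and how much of each mitochondrial transcript it captured was not measured.

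The 3 mitochondrial genes that passed were the 3 shortest: mt-Atp8 with 204 bases, mt-Nd4l with 297 and mt-Nd3 with 348. mt-Atp8, a stator subunit of the ATP synthase, stood at 3489, 2924 and 3926 FPKM in OE libraries against 1277, 1462, 1644 and 1766 FPKM in WT libraries (log2 fold change 1.16, SE 0.12, limma adjusted p = 2.60e-05). It was higher in every OE library. mt-Nd4l stood at 450, 674 and 556 FPKM in OE libraries against 751, 799, 850 and 917 FPKM in WT libraries (log2 fold change -0.58, limma adjusted p = 0.00221). mt-Nd3 stood at 244.0, 187 and 169 FPKM in OE libraries against 244.1, 316, 290 and 333 FPKM in WT libraries (log2 fold change -0.57, limma adjusted p = 0.00417). OE library 1 of mt-Nd3 lay just below WT library 1, whereas the mt-Nd4l groups were apart. Both genes encode membrane subunits of complex I.

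Overlapping and near-identical genes bear on these values. mt-Atp8 shares 43 bases with mt-Atp6, and the pair is translated from a single mRNA; mt-Atp6 did not pass, at 1332, 1242 and 1022 FPKM in OE libraries against 1145, 1127, 1512 and 1478 FPKM in WT libraries (log2 fold change -0.13, limma adjusted p = 0.410). mt-Nd4l shares 7 bases and an mRNA with mt-Nd4. In addition, 5 mitochondrial members have a copy elsewhere in the annotation, at least 97% identical over at least 200 bases, that was itself listed at a high level. The copy of mt-Atp6, Gm10925, averaged 7536 FPKM over the MC38 libraries, against 1266 FPKM for mt-Atp6 itself, and the copy of mt-Co2, Gm28661, averaged 7183 FPKM against 866 FPKM. The tables thus list most of the FPKM of these sequences under another entry, and the members' own values are uncertain.

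The copy of mt-Nd3, Gm28438, stood at 549, 614 and 713 FPKM in OE libraries against 473, 348, 489 and 411 FPKM in WT libraries, the opposite direction to mt-Nd3. With copies added to their members, an alternative chosen after seeing the data, mt-Nd3 stood at 793, 800 and 882 FPKM in OE libraries against 717, 664, 779 and 745 FPKM in WT libraries, and its fold change turned positive (log2 0.18, limma adjusted p = 0.0236). mt-Nd4l was then level (log2 fold change 0.03, limma adjusted p = 0.801). mt-Co3, alone at a log2 fold change of 0.21 (limma adjusted p = 0.409), rose once its copy was added, at 2795, 2909 and 2884 FPKM in OE libraries against 2338, 2157, 2625 and 2408 FPKM in WT libraries (log2 fold change 0.27, limma adjusted p = 0.00428). mt-Co2 had an estimate of 0.09 (SE 0.09) with its copy and -0.12 (SE 0.25) alone, and mt-Atp6 one of 0.02 with its copy. The mitochondrial calls were then 3 higher and 0 lower. mt-Atp8 has no such copy in the annotation used, and its share of the reads of the mt-Atp6 mRNA was not tested.

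**Figure D3:**
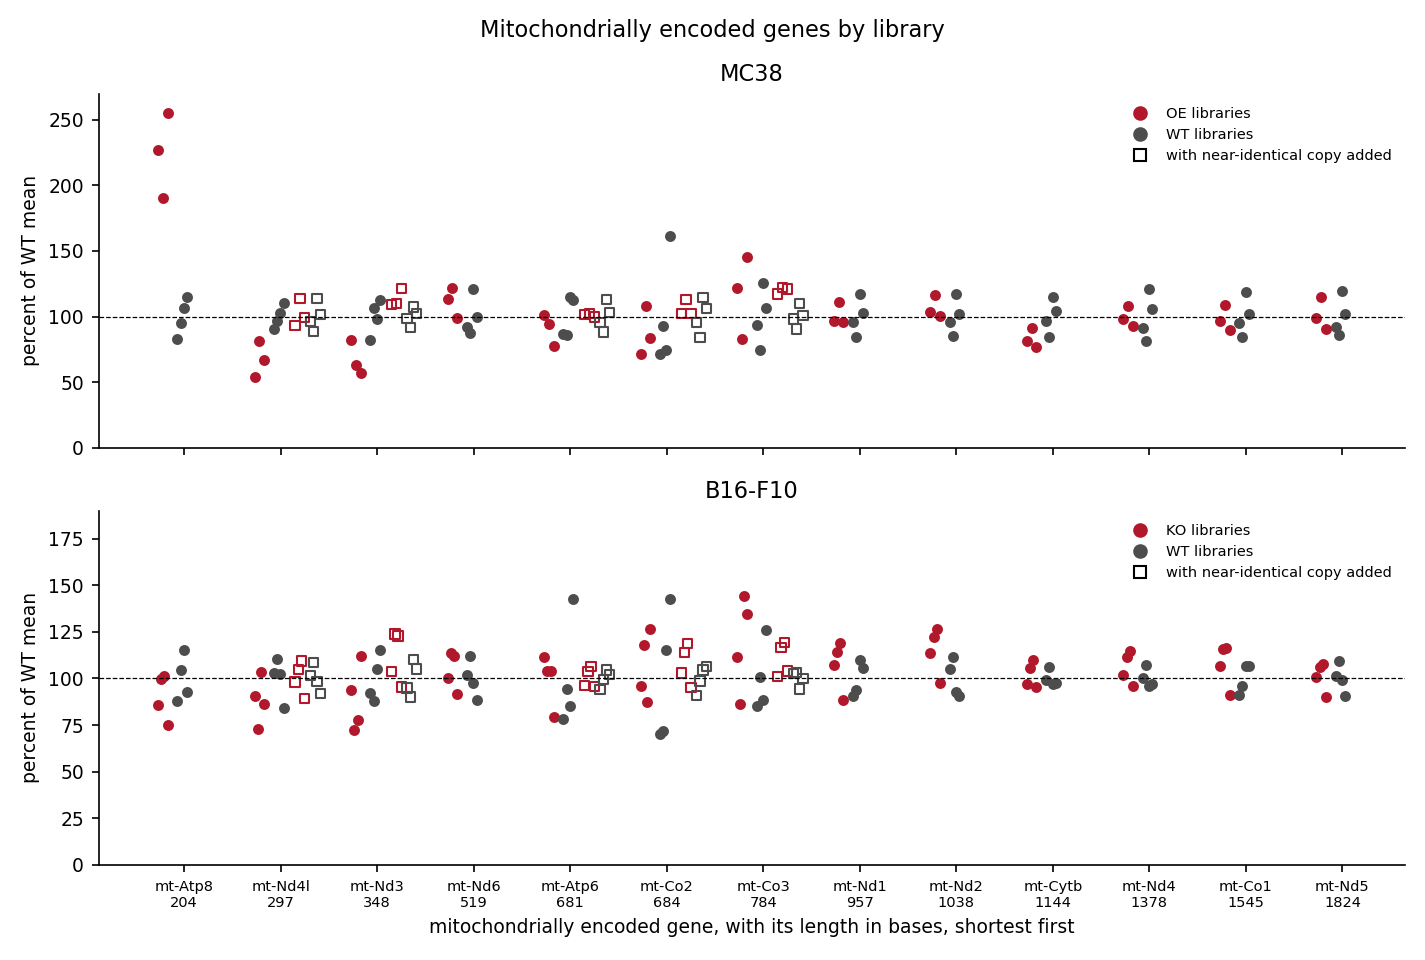
FPKM of each mitochondrially encoded gene as a percentage of its WT mean (vertical axis), 1 point per library, for MC38 (top) and B16-F10 (bottom), shortest gene first; open squares add the near-identical copy. In MC38 the OE libraries stand apart upward for mt-Atp8 and downward for mt-Nd4l. For mt-Nd3 they lie lower too, but the highest OE library all but touches the lowest WT library. With copies added mt-Nd3 lies above WT and mt-Nd4l overlaps it.

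Nuclear members have such copies as well, although few of those with a listed level are expressed. Of the 79 nuclear members 13 have a near-identical copy, and in 2 the copy reached at least 5% of the member. Atp5g2 averaged 26.2 FPKM in MC38 while its copy Gm10175 averaged 386 FPKM, and Ndufb4 averaged 14.5 FPKM while Ndufb4c averaged 65.2 FPKM. The copies of Ndufa12, Cox5b, Cox7c and Ndufs5 had no entry under their symbols in either line, so their levels are unknown. That of Ndufa12 is 99.5% identical over 402 bases, and its part in the Ndufa12 values was not tested. Summed with its copy, Atp5g2 stood at 390 ± 13.5 FPKM in OE and 429 ± 20.8 FPKM in WT cells (SD, n = 3 and n = 4; log2 fold change -0.14, limma adjusted p = 0.0253), and Ndufb4 had a log2 fold change of -0.12 (limma adjusted p = 0.0749).

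Transcript levels were also summed by complex. In MC38 the 79 nuclear members summed to 10983 ± 160 FPKM in OE and 11510 ± 381 FPKM in WT cells (SD, n = 3 and n = 4), 95.4% of WT, with overlapping groups. The nuclear complex I sum stood at 2647, 2564 and 2672 FPKM in OE libraries against 2684, 2864, 2692 and 2767 FPKM in WT libraries, 95.5% of WT. The nuclear ATP synthase sum stood at 3958, 3908 and 3983 FPKM in OE libraries against 4013, 4214, 4093 and 4244 FPKM in WT libraries, 95.4% of WT. In both of these sums every OE library was below every WT library as deposited. For complex I the gap was narrow, 2672 against 2684 FPKM. With the FPKM totals of the libraries made equal it closes, as WT library 3 then lies below OE library 3. Complex II stood at 102.3% of WT, nuclear complex III at 98.5% and nuclear complex IV at 93.4%, each with overlapping groups.

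The 13 mitochondrial genes summed to 29440 ± 1748 FPKM in OE and 29350 ± 3838 FPKM in WT cells, 100.3% of WT. Across other settings this sum was 93.9 to 103.8% of WT. It was lowest with the overlapping genes mt-Atp8, mt-Atp6, mt-Nd4l and mt-Nd4 left out. All 13 mitochondrial genes together supplied 72.8 ± 1.40% of the members' FPKM in OE cells and 71.6 ± 2.85% in WT cells. Within them, the ATP synthase pair stood at 162.8% of WT, with all OE libraries above all WT libraries, and at 119.5% with the copy of mt-Atp6 added. The complex I, III and IV genes stood at 99.1%, 83.3% and 98.2% of WT, with overlapping groups. No p is given for sums, since the members were chosen with earlier results of these data known.

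**Figure D4:**
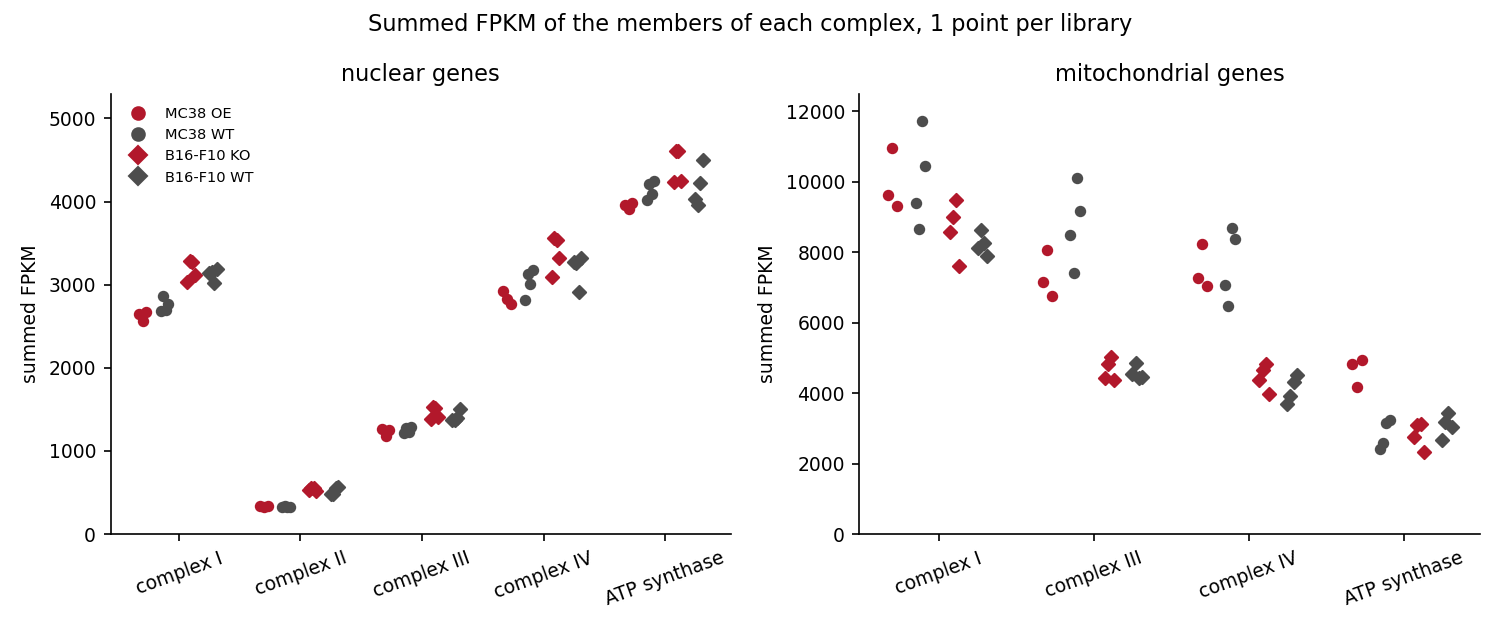
Summed FPKM of the members of each complex (vertical axis), nuclear genes left and mitochondrial genes right, 1 point per library; circles are MC38, diamonds B16-F10, red the OE or KO libraries and grey WT. Nuclear sums of MC38 OE cells lie between 93.4% and 102.3% of WT, and the mitochondrial ATP synthase pair of MC38 lies at 162.8%.

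No member passed between KO and WT cells of B16-F10. Of 91 members tested by limma, 4 had an unadjusted p under 0.05, 3 higher and 1 lower in KO cells, against 21.3% of all genes, and 0 passed under any of the other settings tried. The groups did not overlap for 4 members (4.40%), against 13.9% of all genes. Ndufv3 came nearest, at 70.3, 80.3, 83.2 and 83.8 FPKM in KO libraries against 94.8, 94.8, 85.6 and 94.3 FPKM in WT libraries (log2 fold change -0.22, SE 0.07, limma adjusted p = 0.103). All 4 KO libraries were below all 4 WT libraries, though WT library 3 was close to the highest KO library. The other members with an unadjusted p under 0.05 were Ndufs3, of the Q module (log2 fold change 0.10, limma adjusted p = 0.217), Atp5j (0.11, limma adjusted p = 0.232) and Atp5l, subunit g (0.21, limma adjusted p = 0.202). The groups of Atp5j and of Atp5l overlapped.

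Estimates in B16-F10 leaned above 0, in 71 of 91 members, with a median log2 fold change of 0.06 against 0.02 over all genes. The share of all genes with estimates above 0 was not counted. Among nuclear ATP synthase genes 16 of 17 estimates were above 0, and those that lead in MC38 had values of 0.11 for Atp5mpl, 0.10 for Uqcrh, 0.05 for Uqcrq and 0.03 for Ndufa12, whereas Ndufv3 was at -0.22. The median over nuclear members was 0.03 to 0.08 across settings and left-out libraries. The median over all genes moved with the scaling too. It was 0.0029 with median-of-ratios factors, where nuclear members had 0.03. With a common total of nuclear genes it was 0.04, where nuclear members had 0.08. The spread within groups was wider than in MC38: the median SD of log2(FPKM + 1) over nuclear members was 0.08 in KO and 0.11 in WT libraries of B16-F10, against 0.05 in OE and 0.07 in WT libraries of MC38. The WT libraries of B16-F10 fell in pairs, with libraries 1 and 2 both below libraries 3 and 4 for 30 nuclear members and both above for 25. The share over all genes was not counted, but the pairs were not particular to the members. Over 1503 genes, chi-square over degrees of freedom was 8.49 between libraries 1 and 2 and 7.94 between 3 and 4. Across the pairs it was 37.7 to 39.4. The part of that split in the absence of calls was not tested.

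The 3 mitochondrial genes that passed in MC38 had estimates of -0.15 for mt-Atp8, -0.18 for mt-Nd4l and -0.18 for mt-Nd3 in B16-F10, with overlapping groups. With copies added, the estimates there turned to 0.15 for mt-Nd3 and 0.0036 for mt-Nd4l, again with overlapping groups. mt-Cytb stood at 4433, 4838, 5037 and 4377 FPKM in KO libraries against 4548, 4852, 4442 and 4467 FPKM in WT libraries. The nuclear members summed to 12977.5 ± 626 FPKM in KO and 12427 ± 454 FPKM in WT cells, 104.4% of WT, and the mitochondrial members to 20619 ± 1830 FPKM in KO and 19991 ± 701 FPKM in WT cells, 103.1% of WT (SD, n = 4 each). KO library 4 was the lowest for the mitochondrial sum, and without it KO cells stood at 107.0% of WT. The mitochondrial share of the members' FPKM was 61.3 ± 1.48% in KO and 61.7 ± 1.31% in WT cells.

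Genes that build or serve the respiratory chain were read from the same fits, and their counts in MC38 stand against 23.9% higher and 23.6% lower (47.5% in all) over all genes tested. Of 19 tested assembly factors of complex I 2 rose and 4 fell, among them the fall of Nubpl, which delivers iron-sulfur clusters (log2 fold change -0.29), and of Ndufaf1 (-0.26); with 31.6% called, the list was below the share over all genes. Its rises, of Tmem126b and Dmac1, numbered 0 without OE library 3 and 1 without OE library 1, OE library 2, WT library 2 or WT library 4. Of 4 for complex II 1 rose, Sdhaf4 (0.37), of 6 for complex III 1 fell, Uqcc1 (-0.37, limma adjusted p = 6.13e-05), and of 5 for the ATP synthase 1 rose, Atpaf1 (0.45, limma adjusted p = 0.00231). The complex III list gained a fall without WT library 3 and a rise without WT library 2. Of 24 for complex IV 5 rose and 5 fell (41.7% called, near the share over all genes). The falls numbered 2 without OE library 1, WT library 2 or WT library 4, 3 without OE library 2 and 7 without WT library 1. Higd1a, a hypoxia-induced inner-membrane protein that binds the complex, rose, at 51.8, 42.7 and 47.5 FPKM in OE libraries against 31.9, 31.5, 28.9 and 32.2 FPKM in WT libraries (log2 fold change 0.59, limma adjusted p = 4.05e-05). Taco1 (0.29), which activates translation of mt-Co1, also rose, and Surf1 (-0.34), needed for assembly around that subunit, fell. Of 14 genes for cytochrome c and ubiquinone synthesis 1 rose and 5 fell (42.9% called, near the share over all genes). The falls included Coq4 (-0.57, limma adjusted p = 0.000148) and Pdss1 (-0.42), which makes the ubiquinone side chain. Without OE library 2 the falls numbered 3, and the rises numbered 0 without OE library 2 or OE library 3 and 2 without WT library 2.

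Of 26 tested genes that transcribe or process mitochondrial RNA 2 rose and 11 fell (50% called, against 47.5% over all genes, of which 23.6% lower), with a median log2 fold change of -0.15 against -0.01 over all genes. Tfam, the packaging and transcription factor of mitochondrial DNA, stood at 27.9, 27.6 and 29.7 FPKM in OE libraries against 41.8, 33.4, 37.4 and 37.7 FPKM in WT libraries (log2 fold change -0.39, SE 0.07, limma adjusted p = 0.00077). Fastkd5 (-0.42) and Tbrg4 (-0.39), RNA-binding proteins of the FASTK family, also fell, while Hsd17b10 (0.17) and Pnpt1 (0.14), of the RNase P and RNA degradation complexes, rose. The call of Hsd17b10 was lost without OE library 3 and that of Pnpt1 without OE library 2. Of 11 genes for mitochondrial DNA replication 3 rose and 5 fell (72.7% called, against 47.5% over all genes), and Twnk, the helicase, was among the falls (-0.43, limma adjusted p = 1.67e-05). The rises numbered 1 without OE library 1 or OE library 2 and 2 without WT library 4, with the calls of Primpol and Rrm2b lost. The summed mitochondrial transcripts of the same libraries, which include the rise of mt-Atp8, stood at 100.3% of WT. Across other settings the sum was 93.9 to 103.8% of WT. Its relation to these calls was not tested.

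Of 11 tested regulators of respiratory genes 1 rose, Yy1 (log2 fold change 0.19, limma adjusted p = 0.00678), and 5 fell (54.5% called). Myc stood at 95.1, 96.6 and 91.2 FPKM in OE libraries against 163, 190, 186 and 191 FPKM in WT libraries (log2 fold change -0.94, SE 0.05, limma adjusted p = 5.07e-07). Pprc1, a coactivator related to PGC-1alpha, fell by 0.36 and Nrf1, the factor of the NRF1 motif above, by 0.24 on the log2 scale (limma adjusted p = 0.000197 and 0.00169). Of 18 tricarboxylic acid cycle enzymes 2 rose, Suclg2 (0.26) and Pdha1 (0.13), and 5 fell (38.9% called), including the isocitrate dehydrogenase subunits Idh3g (-0.33) and Idh3b (-0.30). The call of Pdha1 was lost without OE library 2, OE library 3, WT library 2, WT library 3 or WT library 4. Of 10 genes that shape the cristae, where the respiratory chain sits, 0 rose and 4 fell (40% called), including Micos13 (-0.33) and Opa1 (-0.16).

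In B16-F10 the 156 listed companion genes, not all of them tested, gave 1 call in all, against 2.23% of all genes tested. Ppargc1a, which encodes PGC-1alpha, a coactivator of respiratory genes that a subset of melanomas expresses highly, stood at 18.2, 18.1, 18.5 and 13.1 FPKM in KO libraries against 11.4, 12.1, 10.6 and 11.1 FPKM in WT libraries (log2 fold change 0.53, SE 0.10, limma adjusted p = 0.0408). Every KO library was higher than every WT library. The call was lost on leaving out any library except KO library 4, with limma adjusted p of 0.0524 to 0.148. It was also lost with the replicate number as a block (limma adjusted p = 0.113) and without a filter on level (limma adjusted p = 0.0946). None of the other listed genes passed, and Myc, Tfam and Nrf1 were among those that did not.

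The levels of the members in the WT cells of both lines can be set side by side. The tables were normalized separately, so these levels carry no test. Of 79 nuclear members 68 were within 2-fold between B16-F10 and MC38. Among the 8 that were more than 2-fold higher in B16-F10 were Atp5mpl, at 249 ± 15.9 FPKM in B16-F10 and 79.7 ± 0.835 FPKM in MC38, Sdhb, at 241 ± 17.5 and 79.9 ± 2.41 FPKM, and Ndufv3, at 92.4 ± 4.53 and 35.3 ± 0.994 FPKM (SD, n = 4 each). The 3 that were more than 2-fold higher in MC38 were Cox6a2, at 0.324 ± 0.368 FPKM in B16-F10 and 113.9 ± 15.3 FPKM in MC38, Ndufa12, at 88.3 ± 4.61 and 266 ± 3.84 FPKM, and Cox8a, at 246 ± 6.28 and 531 ± 70.6 FPKM. Of the mitochondrial genes 11 of 13 were higher in MC38 as deposited, but the library ranges of mt-Co3, mt-Nd4, mt-Nd4l and mt-Nd6 overlapped between the lines. With copies added, mt-Co3 averaged 3578 FPKM in B16-F10 and 2382 FPKM in MC38, the opposite order, and mt-Nd3 716 FPKM in B16-F10 and 726 FPKM in MC38. mt-Cytb stood at 4577 ± 189 FPKM in B16-F10 and 8792 ± 1145 FPKM in MC38.

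**Figure D5:**
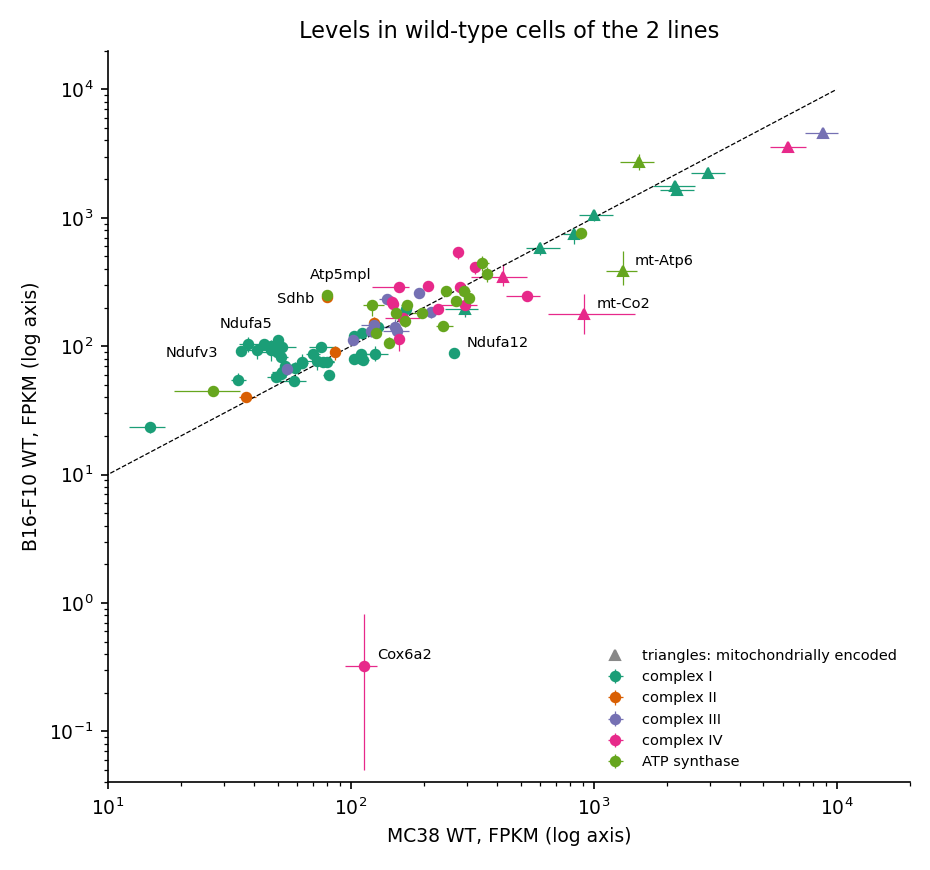
Mean FPKM of each member in WT B16-F10 (vertical log axis) against WT MC38 (horizontal log axis), with lines to the lowest and highest of 4 libraries and a dashed line of equality; the line for Cox6a2 is cut at 0.05 because 1 B16-F10 library is at 0. Most members lie near equality, Cox6a2 and Ndufa12 lie on the MC38 side and Atp5mpl, Sdhb, Ndufa5 and Ndufv3 on the B16-F10 side.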

How the data were processed

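Per the labels' protocols, libraries of polyadenylated RNA kept strand. The authors deposited FPKM values by gene symbol, in 1 table for MC38 and another for B16-F10. GRCm39 and DESeq2 are named in the submitters' processing notes; which aligner, counter and annotation they used is not given in the sources used here. Columns summed to 482580 to 511160 FPKM, and 0 columns were left unmatched to samples.

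Tests used limma 3.58.1 (R 4.3.3) on log2 of FPKM plus a pseudocount of 1, with a mean-variance trend, within each line, on genes with a mean of at least 1 FPKM there, and p-values were adjusted over all of them by the Benjamini-Hochberg method at 0.05. For low genes this scale gives smaller fold changes than the FPKM ratio. The script was tested on simulated data. Depth was estimated from low FPKM values, of which 82.6 to 86.7% lay within 0.1 of a whole multiple of 1 fragment; whole reads were not recovered for nearly all genes, so no count model was used. No replicate pair was as alike as sampling alone would give (chi-square over degrees of freedom, 6.72 to 39.4).

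Near-identical copies were found with BLAST 2.17.0 among GENCODE M21 transcripts (at least 97% identity over at least 200 bases or 80% of the shorter transcript), which use GRCm38, not GRCm39; 89 members had a transcript there, and 5 overlap a neighbouring gene. Promoters came from RefSeq on GRCm38.p6.

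Members, 11 companion lists (156 genes), subunit groups, tests and naming rule were chosen with earlier results of these data known. The rule named all mitochondrial members, up to 12 rises and 12 falls per line, the most abundant member of each complex, tissue isoforms, and up to 3 rises and 3 falls per list; other genes, among them Atp5b, Atp5j, Atp5o, Ndufb9, Uqcr10 and the uncalled B16-F10 genes, were named after their values were seen. As alternatives, a pseudocount of 0.1, filters at 0.1 and 5 FPKM or none, other scalings, a robust variance model, library weights and a replicate block were tried, and each library was left out in turn. Adding copies to members was chosen after seeing the data.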

Additional observations from a re-analysis of the deposited data

Results flagged for a closer look

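In groups of 4 libraries, the gap between the highest or lowest library and its nearest neighbour was compared with the range of the group (Dixon's test), for 124 groups; 3 stood apart, and chance flags about 1 in 20 groups. Atp5g1, a c-ring gene of the ATP synthase, was high in B16-F10 WT library 4, at 158 FPKM, where the other WT libraries lay between 139.7 and 140.8 FPKM. The nuclear complex IV sum was low in B16-F10 WT library 3, at 2908 FPKM, where the other WT libraries lay between 3256 and 3323 FPKM. Ssbp4 was low in MC38 WT library 1, at 13.2 FPKM, where the other WT libraries lay between 17.0 and 17.6 FPKM.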

How the results depend on the processing

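For the counts of calls, the sums by complex and the check of Ssbp4, 368 recomputed values were unchanged, 4 moved and 1 weakened. A count was taken as unchanged while within a set ratio of the main count, whichever genes were called. A sum had to move by less than the WT spread, and Ssbp4 to keep its direction and side of the threshold. Counts taken as unchanged still varied. On leaving out 1 library, the MC38 members numbered 7 to 10 rises and 16 to 23 falls. The moved and weakened values are these. With the replicate number as a block the MC38 falls numbered 10 in place of 17 and Ssbp4 in B16-F10 kept its log2 fold change of -0.62 at limma adjusted p = 0.089; the numbers do not pair the libraries (correlations of deviations -0.30 to 0.17, and 0 of the 7 libraries compared correlated best with their own number). With near-identical copies added, mt-Nd3 turned to 0.18 and mt-Nd4l to 0.030 on the log2 scale, and the mitochondrial ATP synthase sum stood at 119.5% of WT in MC38; the added reads of the copies make this difference by construction. Leaving out each library in turn, the B16-F10 mitochondrial sum ranged from 100.1 to 107.0% of WT and its complex I sum from 102.1 to 109.7%, both highest without KO library 4. For single genes and call counts of the companion lists, nuclear members and mitochondrial members, 3082 recomputed values were unchanged in these senses. A call was lost in 77 and gained in 9, while 65 moved and 2 reversed. Without a filter, 21 of the 25 MC38 calls were kept, more genes being tested. The calls over all genes in B16-F10, the background for the 0 calls among members, numbered 243 and ranged from 12 with the replicate block to 776 with library weights. FPKM tables carry no counts, so depth could only be estimated.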
